A study of Mus musculus with 24 samples.

Results

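The transcripts followed here are those of 10 circadian clock genes in mouse organ of Corti explants, the sensory epithelium of the cochlea kept in culture. They are Per1, Per2, Per3, Cry1, Cry2, Nr1d1, Nr1d2, Dbp, Bmal1 (formerly Arntl) and Clock. They were chosen by name, as the rows of the table of counts whose Entrez identifier belongs to 1 of these symbols, and make up 10 of its 24454 rows. All 10 passed the filter on low counts, with between 50 and 3445 counts per library.

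Organs of Corti came from C57BL/6N mouse pups of both sexes at postnatal day 5. After a preculture of 24 h they were kept for another 6 or 24 h without drugs (CTRL), with 50 µM gentamicin (GM), with 10 µM pioglitazone (PIO) or with the 2 drugs together (PIO+GM). Gentamicin is an aminoglycoside toxic to hair cells, and pioglitazone activates the nuclear receptor PPAR-γ. Each of the 8 groups had 3 libraries (24 in all), each from 6 pooled explants, and the labels do not say whether the pools came from separate litters, so that the p-values measure the spread between these pools. An explant holds hair cells, supporting cells, neurites, glia, mesenchyme and macrophages, and in such bulk RNA fewer cells of a type and less RNA per cell cannot be told apart. The labels give no time of day, and with 6 and 24 h as the only times the phase of a rhythm and the time spent in culture cannot be told apart.

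The circadian clock is a transcriptional loop present in most cells, the cochlea included. BMAL1 and CLOCK bind as a pair to E-boxes and activate the Per and Cry genes, whose proteins return to the nucleus and repress that pair. A second loop joins the nuclear receptors of the Nr1d family (REV-ERB), which repress Bmal1 through elements that they share with the ROR receptors, and output genes such as Dbp carry the rhythm to other promoters through D-boxes. In many tissues Bmal1 peaks at a time of day when Per3 and Dbp are low.

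Promoters of 4 genes are printed because these were the genes that differed between 6 and 24 h in each of the 4 treatments (below, Per3 and Dbp higher and Cry1 and Bmal1 lower at 24 h). The sequences are those of RefSeq on build GRCm38.p6, from 250 bases before to 50 bases after a start site, read 5′ to 3′ on the strand of the gene, with motifs in capitals. Of the 10 genes, 9 had an entry, and Per2 had none. The motifs searched, on both strands, were the E-box CACGTG, the D-box TTANNTAA, the core of the element bound by ROR and REV-ERB, TAGGTCA (RORE), and the cAMP response element TGACGTC (CRE).
Per3, chr4:151044616-151044915, minus strand: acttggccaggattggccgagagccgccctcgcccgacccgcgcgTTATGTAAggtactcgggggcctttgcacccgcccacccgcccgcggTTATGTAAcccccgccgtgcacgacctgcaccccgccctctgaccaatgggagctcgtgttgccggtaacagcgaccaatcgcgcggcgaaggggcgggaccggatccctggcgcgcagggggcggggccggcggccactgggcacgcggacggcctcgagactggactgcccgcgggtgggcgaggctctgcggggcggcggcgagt
Dbp, chr7:45704997-45705296, plus strand: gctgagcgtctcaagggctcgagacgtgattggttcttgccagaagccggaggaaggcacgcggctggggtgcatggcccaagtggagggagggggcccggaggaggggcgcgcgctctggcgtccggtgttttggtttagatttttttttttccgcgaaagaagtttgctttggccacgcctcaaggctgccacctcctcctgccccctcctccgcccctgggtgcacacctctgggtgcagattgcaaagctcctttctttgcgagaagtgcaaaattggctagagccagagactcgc
Cry1, chr10:85185005-85185304, minus strand: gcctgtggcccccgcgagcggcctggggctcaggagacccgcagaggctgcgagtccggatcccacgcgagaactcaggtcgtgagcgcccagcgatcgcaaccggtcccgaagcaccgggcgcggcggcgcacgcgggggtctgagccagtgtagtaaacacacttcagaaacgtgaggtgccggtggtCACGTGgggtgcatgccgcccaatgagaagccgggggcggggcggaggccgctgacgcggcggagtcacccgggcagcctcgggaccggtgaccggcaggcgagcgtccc
Bmal1, chr7:113207261-113207560, plus strand: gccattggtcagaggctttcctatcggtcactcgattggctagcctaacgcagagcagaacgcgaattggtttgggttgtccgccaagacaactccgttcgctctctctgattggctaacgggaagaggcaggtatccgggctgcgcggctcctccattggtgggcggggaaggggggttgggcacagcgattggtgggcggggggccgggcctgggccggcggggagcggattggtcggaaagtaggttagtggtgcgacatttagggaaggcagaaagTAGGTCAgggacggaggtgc
Positions are those of the first base of a match counted from the start site, whose first transcribed base is 1. The window of Per3 held 2 D-boxes, at -205 and -158, and 6% of the 32851 windows of all genes held at least 1. The window of Cry1 held 1 E-box at -60 (7.15% of all windows held one), and the window printed for Bmal1 held 1 RORE core at 31 (2.61% of all windows). The Dbp window held none of the 4 motifs. Of the windows not printed, 1 of the 2 of Per1 held an E-box at -166 and the other a CRE at -132 (3.21% of all windows), while the second of Bmal1 (chr7:113207215-113207514) and those of Cry2, Nr1d1, Nr1d2 and Clock held none. A match says only that these letters are in the window.

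Library totals ranged from 7211357 to 15548856 counts on genes, with a median of 12538495, and 3 counts corresponded to 0.193 to 0.416 CPM, the count scaled to library size, which covers counting error only. CPM were scaled by TMM factors of 0.961 to 1.04. At 6 h, 3 libraries stood apart: PIO replicate 2 and PIO+GM replicates 2 and 3. In these libraries the deviation of a gene's level from the mean of all libraries followed its GC content, with Spearman's rho across genes of -0.71 to -0.51 against -0.10 to 0.40 in the other 21. Calls of clock genes that changed without them are named. Of 8 hair cell markers, Myo7a, Pou4f3 and Atoh1 were higher at 24 h and Slc26a5 was lower (the calls of Atoh1 and Slc26a5 were lost without the 3 libraries, adjusted p = 0.0843 and 0.142), while markers of spiral ganglion neurons were lower in 4 of 4 and those of macrophages higher in 3 of 5 (2 of 5 without the 3 libraries). Of the markers of Schwann cells 2 of 4 were lower, while 3 of 6 of supporting cells and 3 of 5 of mesenchyme were higher (2 of each without the 3 libraries). These counts stand beside 31.9% of all genes tested called higher and 30.7% called lower at 24 h. The summed level of the neuronal markers was 47.8 to 277 CPM at 6 h and 28.2 to 171 CPM at 24 h, and that of the macrophage markers 34.2 to 91.3 and 54.8 to 195 CPM. The part of these markers' differences in the values below was not tested.

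The first question was how the clock genes differed between 6 and 24 h of culture. Across all treatments Per3 and Dbp were higher at 24 h, with about a tripling of their level, Nr1d2, Cry2, Per1 and Per2 were higher by less, and Cry1, Bmal1 and Clock were lower. Nr1d1 alone did not pass the test. In edgeR's quasi-likelihood test with Benjamini-Hochberg adjustment over 16317 genes and a threshold of 0.05, 9 of 10 clock genes were called, 6 higher and 3 lower. The background was high: 62.6% of all genes tested were called, 31.9% higher and 30.7% lower at 24 h. The median absolute log2 fold change was 0.59 over the clock genes and 0.38 over all genes.

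**Figure D1:**
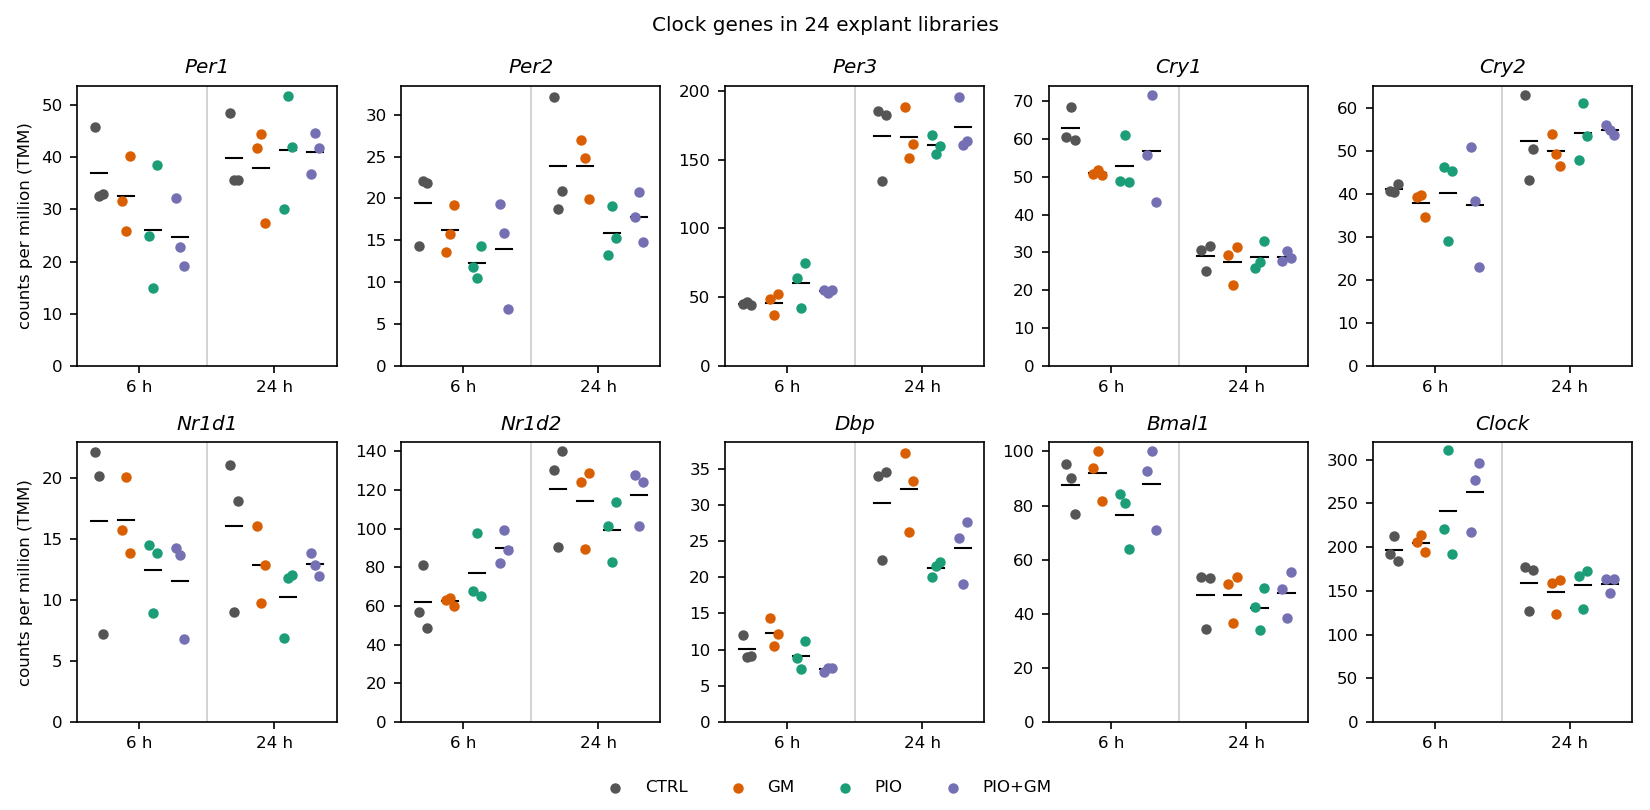
Level of each clock gene in CPM (counts scaled to library size with TMM factors, linear axis from 0) in every library, by time and treatment. Points are libraries, 3 per group, and bars are group means. The 12 libraries at 24 h lie above the 12 at 6 h for Per3 (134 to 196 against 37.0 to 74.8 CPM) and Dbp and below them for Cry1, Bmal1 and Clock.

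Among the Per genes, which encode repressors of BMAL1 and CLOCK, Per3 (chr4:150997018-151044707, minus strand, the gene whose promoter holds 2 D-boxes) changed most. Its level was 37.0, 50.1 and 74.8 CPM (lowest, median and highest of 12 libraries) at 6 h and 134, 163 and 196 CPM at 24 h. Every library at 24 h lay above every library at 6 h. The log2 fold change was 1.71 (SE 0.09, adjusted p = 1.4e-11), which is 3.27-fold, and by p-value Per3 stood at rank 19 of the 16317 genes tested.

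Per1 (chr11:69095108-69109965, plus strand) and Per2 (chr1:91415977-91459351, minus strand) differed by less and their times overlapped. Per1 measured 14.8, 31.9 and 45.8 CPM at 6 h and 27.4, 41.8 and 51.9 CPM at 24 h, a log2 fold change of 0.43 (SE 0.14, adjusted p = 0.0149). Per2 measured 6.76, 15.0 and 22.1 CPM at 6 h and 13.2, 19.5 and 32.2 CPM at 24 h, a log2 fold change of 0.39 (SE 0.14, adjusted p = 0.0237). Both calls were lost without the 3 libraries that followed GC content, with log2 fold changes of 0.26 (adjusted p = 0.109) for Per1 and 0.26 (adjusted p = 0.1) for Per2. The 3 libraries held the lowest Per1 of all libraries at 6 h, 14.8 to 22.9 CPM against 24.9 to 45.8 CPM in the other 9. The call of Per2 was also lost without CTRL 24 h replicate 1, the library with the highest Per2, where the log2 fold change was 0.33 (adjusted p = 0.0534).

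The genes of the cryptochromes, which repress together with the PER proteins, moved in opposite directions. Cry1 (chr10:85131700-85185054, minus strand) measured 43.4, 53.9 and 71.6 CPM at 6 h and 21.5, 29.0 and 33.0 CPM at 24 h. The times did not overlap, and the log2 fold change was -0.97 (SE 0.08, adjusted p = 1.1e-08), a decrease to 0.512 of the level at 6 h. Cry2 (chr2:92403646-92434085, minus strand) measured 23.0, 40.0 and 50.8 CPM at 6 h and 43.3, 53.7 and 63.1 CPM at 24 h, a log2 fold change of 0.43 (SE 0.10, adjusted p = 0.00147). Exons of Cry2 and of D930015M05Rik on the other strand share 295 bases, and the use of the strand in counting is not given in the sources used here. The 2 libraries with the lowest Cry2 were PIO 6 h replicate 2 and PIO+GM 6 h replicate 3, and without the 3 libraries that stood apart the log2 fold change was 0.28 (adjusted p = 0.00234).

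Of the nuclear receptor genes, Nr1d2 was higher at 24 h and Nr1d1 was not called. Nr1d2 (REV-ERBβ, chr14:18204056-18239106, minus strand) measured 48.4, 66.5 and 99.4 CPM at 6 h and 82.9, 119 and 140 CPM at 24 h, a log2 fold change of 0.64 (SE 0.10, adjusted p = 2e-05). Its times overlapped only through the 3 libraries that followed GC content (88.8 to 99.4 CPM), since the other 9 libraries at 6 h reached 82.4 CPM. Nr1d1 (REV-ERBα, chr11:98767932-98775377, minus strand) measured 6.76, 14.0 and 22.1 CPM at 6 h and 6.88, 12.4 and 21.0 CPM at 24 h, a log2 fold change of -0.14 (SE 0.19, 95% interval -0.50 to 0.23, adjusted p = 0.538). Its libraries varied most of the 10 genes within groups, with an SD on the log2 scale of 0.58 at 6 h and 0.44 at 24 h. Its exons share 263 bases with those of Thra on the other strand.

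Dbp (chr7:45705100-45710203, plus strand), which encodes a transcription factor of the PAR bZIP family that binds D-boxes, measured 6.95, 9.01 and 14.3 CPM at 6 h. At 24 h it measured 19.1, 25.9 and 37.1 CPM. The times did not overlap, and the log2 fold change was 1.48 (SE 0.10, adjusted p = 5.6e-10), which is 2.79-fold. Without the 3 libraries it was 1.46, and with the GC trend of each library removed it was 1.22 (adjusted p = 6.9e-08). Exons of Dbp and of Sphk2 on the other strand share 539 bases. Of the clock genes, Per3 and Dbp alone were called with a change of at least 2-fold, 2 of 10 where 13.9% of all genes tested were.

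Bmal1 and Clock, the activators, were both lower at 24 h. Bmal1 (chr7:113178471-113314126, plus strand, with the RORE core in the printed window) measured 63.7, 87.3 and 100.1 CPM at 6 h and 33.9, 49.4 and 55.5 CPM at 24 h, a log2 fold change of -0.90 (SE 0.10, adjusted p = 2.6e-07). Clock (chr5:76209868-76305603, minus strand) measured 184, 213 and 311 CPM at 6 h and 124, 163 and 178 CPM at 24 h, a log2 fold change of -0.53 (SE 0.09, adjusted p = 2.4e-05). Neither gene overlapped between the times. The highest values of Clock were those of the 3 libraries that stood apart (277 to 311 CPM against 184 to 221 CPM in the other 9 at 6 h), and without them its log2 fold change was -0.40 (adjusted p = 0.00028). Clock has the lowest GC content of the 10 genes (40.9% against up to 61.6% in Dbp).

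**Figure D2:**
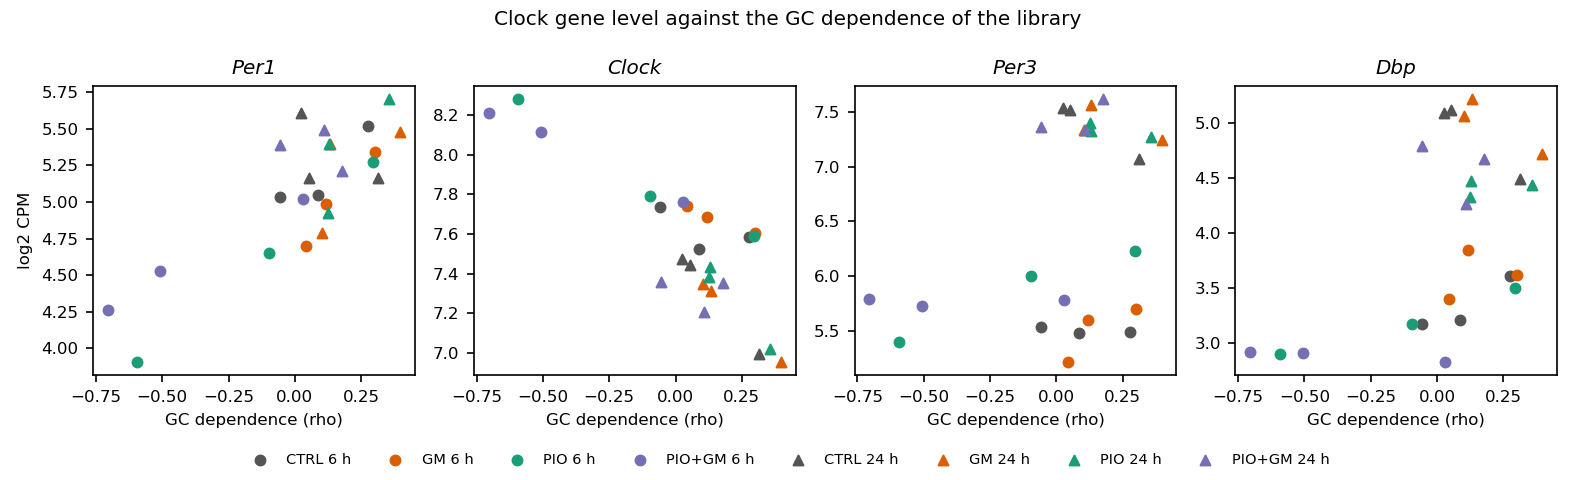
Log2 CPM of 4 clock genes in each library (circles 6 h, triangles 24 h, colour by treatment) against the GC dependence of the library, the Spearman rho across genes between GC content and deviation from the mean of all libraries. The 3 libraries below -0.5 have the lowest Per1 and the highest Clock, while Per3 is apart between the times whatever the GC dependence.

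In all, Per3, Cry1, Dbp, Bmal1 and Clock did not overlap between the 12 libraries of each time, 5 of 10 clock genes where 12.4% of all genes tested did not. Levels can be compared between genes per length, as log2 RPKM, that is CPM divided by the length of the gene in kilobases. At 6 h the order of the medians on this scale ran from Bmal1 (4.91) through Clock (4.43), Cry1 (4.16), Nr1d2 (3.84), Cry2 (3.32), Per3 (3.05), Per1 (2.76), Dbp (2.42) and Nr1d1 (2.34) to Per2 (1.36). At 24 h it ran from Per3 (4.75) through Nr1d2 (4.68), Bmal1 (4.09), Clock (4.04), Dbp (3.95), Cry2 (3.75), Cry1 (3.27), Per1 (3.15) and Nr1d1 (2.17) to Per2 (1.74). Per3 thus passed from position 6 to position 1 and Bmal1 from 1 to 3. Neighbours in the order were often not apart: Dbp exceeded Nr1d1 in 7 of 12 libraries at 6 h, and at 24 h Bmal1 exceeded Clock in 7 of 12 and Clock exceeded Dbp in 6 of 12. At 24 h, Nr1d2 exceeded Bmal1, Cry2 exceeded Cry1 and Per1 exceeded Nr1d1 in 12 of 12.

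Ratios formed within a library do not depend on its scaling. The log2 ratio of Per3 to Bmal1 (RPKM) ran from -2.49 to -0.83 at 6 h, with a median of -1.91, and from 0.51 to 1.13 at 24 h, with a median of 0.87. The sign of the ratio separated the times in every library. The same held for Cry2 over Cry1, from -1.48 to -0.49 at 6 h and from 0.15 to 0.79 at 24 h. Dbp over Bmal1 ran from -2.97 to -1.71 at 6 h and from -0.37 to 0.33 at 24 h, again without overlap, whereas Bmal1 over Clock overlapped (-0.29 to 0.76 and -0.20 to 0.21). Per3 and Dbp were already apart between the times upward and Bmal1 downward, so that their ratios to Bmal1 had to separate the times. Where 0 falls depends on the gene lengths.

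**Figure D3:**
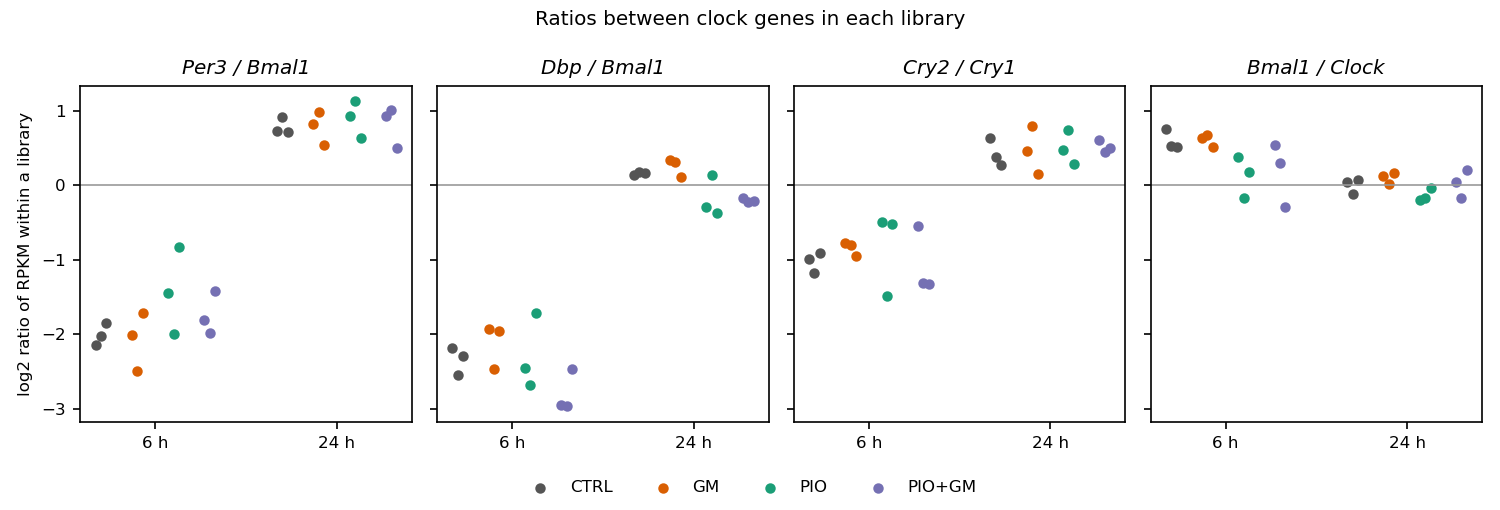
Log2 ratio of RPKM between pairs of clock genes within each library, by time, with the treatment as colour. Each point is 1 library, and the line marks equal levels. Per3 over Bmal1 and Cry2 over Cry1 are below 0 in all 12 libraries at 6 h and above 0 in all 12 at 24 h, while Bmal1 over Clock overlaps.

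Within single treatments, of 3 against 3 libraries, the same test called 5 clock genes in CTRL (28.0% of all genes tested), 5 in GM (24.2%), 5 in PIO (29.0%) and 6 in PIO+GM (34.6%). Without overlap between the times were 7 of 10 clock genes in CTRL, 8 in GM, 6 in PIO and 8 in PIO+GM, beside 46.4%, 44.9%, 41.3% and 43.1% of all genes tested. Per3, Cry1, Dbp and Bmal1 were called in each of the 4 treatments and in 1 direction, 4 of 10 where 14.2% of all genes tested were. In CTRL, Per3 measured 45.0, 46.2 and 44.5 CPM at 6 h (replicates 1 to 3) and 185, 134 and 183 CPM at 24 h. Bmal1 measured 95.2, 90.3 and 77.0 CPM at 6 h and 53.5, 34.2 and 53.3 CPM at 24 h in the same libraries. The times were apart for both genes in the untreated explants. Over the 4 treatments the log2 fold change ranged from 1.41 to 1.89 for Per3, from 1.21 to 1.73 for Dbp, from -1.12 to -0.88 for Cry1 and from -0.96 to -0.86 for Bmal1.

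The other 6 genes were called in some treatments or in none. Nr1d2 was called in CTRL (0.95, SE 0.21, adjusted p = 0.00204) and in GM (0.87, SE 0.20, adjusted p = 0.0045), and in PIO and PIO+GM its log2 fold change was 0.37 and 0.38 (adjusted p = 0.174 and 0.148). Clock was called in PIO (-0.63, adjusted p = 0.0107) and PIO+GM (-0.73, adjusted p = 0.00297), with -0.30 in CTRL and -0.46 in GM (adjusted p = 0.202 and 0.0536). The call of Clock in PIO was lost without PIO 6 h replicate 2 (-0.40, adjusted p = 0.095), a library that followed GC content, and without PIO 24 h replicate 2 (-0.50, adjusted p = 0.0639). Without the 3 libraries that stood apart Clock was at -0.40 in PIO (adjusted p = 0.0691), at -0.45 in PIO+GM (adjusted p = 0.0887) and at -0.46 in GM (adjusted p = 0.0161), so that of the 4 treatments GM alone held a call. With the GC trend removed Clock was also called in CTRL (-0.28, adjusted p = 0.0129) and GM (-0.44, adjusted p = 0.000645). With the GC trend removed, Nr1d2 was called in PIO (0.62, adjusted p = 0.00537) and PIO+GM (0.64, adjusted p = 0.00345) as well as in CTRL (0.97) and GM (0.89). Cry2 was called in PIO+GM alone (0.55, adjusted p = 0.0495), a call that 19 of the 24 fits leaving out 1 library lost, with adjusted p from 0.0514 to 0.22. Without PIO+GM 6 h replicate 3 the value was 0.30, and with the GC trend removed it was 0.25 (adjusted p = 0.234). Without the 3 libraries it was 0.12 in PIO+GM (adjusted p = 0.648), and Cry2 was called in CTRL (0.35, adjusted p = 0.0318) and GM (0.40, adjusted p = 0.0165). Per1, Per2 and Nr1d1 were called in no single treatment. Per1 was called in PIO+GM by DESeq2 (adjusted p = 0.0491), by the likelihood ratio test (adjusted p = 0.0438) and with the libraries of the groups compared only (adjusted p = 0.0404), and without PIO 6 h replicate 2 or 3 or PIO+GM 6 h replicate 1 (adjusted p = 0.0281, 0.0332 and 0.0257). It was called in PIO without PIO 6 h replicate 3 (1.06 in place of 0.66, adjusted p = 0.0106).

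Whether the time difference itself depended on the treatment was tested with 3 degrees of freedom. By edgeR's quasi-likelihood test, DESeq2 and edgeR's likelihood ratio test alike, 0 of 10 clock genes were called, and 0 had an unadjusted p under 0.05 in the first (0 of 16317 genes called, 3.21% with an unadjusted p under 0.05). The calls of Nr1d2 without and of Clock with pioglitazone are therefore not shown to differ between treatments. The narrower test, whether the pioglitazone effect differed between the times, also called neither. There Nr1d2 had the lowest log2 fold change of the 10 genes, -0.53 (unadjusted p = 0.0165, adjusted p = 0.476, edgeR's quasi-likelihood test).

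**Figure D4:**
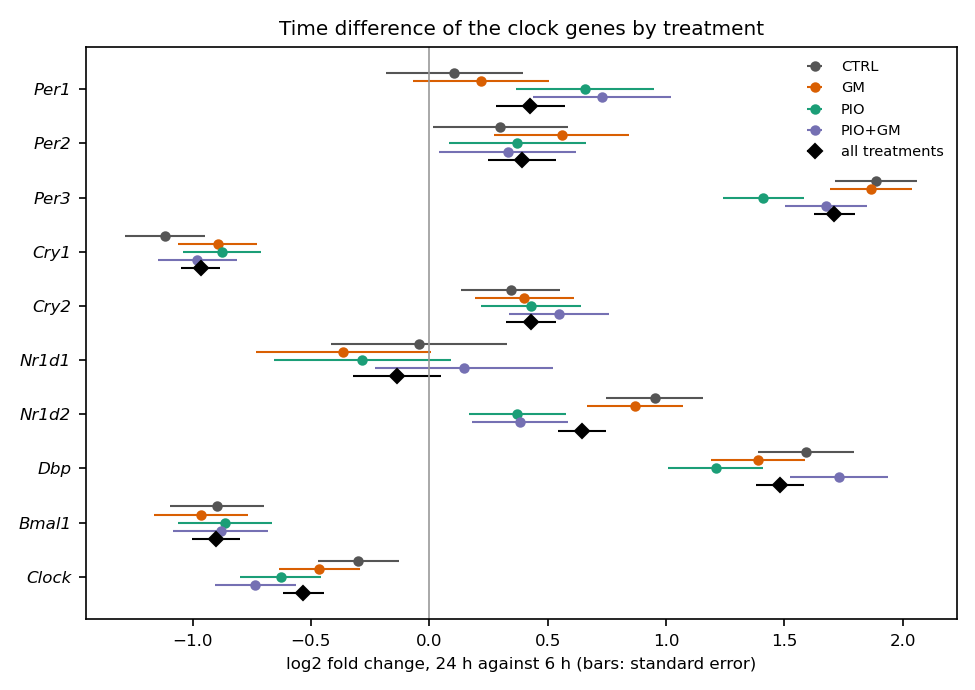
Log2 fold change of each clock gene, 24 h against 6 h, in the 4 treatments (circles, 3 against 3 libraries) and over all treatments (diamonds, 12 against 12), with standard errors from edgeR's fit. Per3 and Dbp lie above 1 in each treatment, Cry1 and Bmal1 near -1, and Nr1d1 on both sides of 0.

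At 24 h the libraries with replicate number 2 were low in several clock genes in each treatment. Bmal1 measured 33.9 to 38.6 CPM in these 4 libraries and 42.5 to 55.5 CPM in the other 8, and Clock 124 to 148 against 159 to 178 CPM. Per3, Nr1d2, Bmal1 and Clock were lowest in replicate 2 of each of the 4 treatments, which is 4 of 10 clock genes where 13.5% of all genes tested were. What the replicate number stands for is not in the labels. At 6 h, Bmal1 and Cry1 were lowest in replicate 3 of each treatment (2.49% of all genes tested).

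The wider clock pathway comprised 23 other genes, all of which passed the filter. Of these, 11 were called between the times over all treatments, 5 higher and 6 lower at 24 h, where 62.6% of all genes tested were called, with a median log2 fold change of -0.06 against 0.02 over all genes. The genes that encode the other PAR bZIP factors were higher, as Dbp was. Tef measured 50.0, 64.7 and 84.9 CPM at 6 h and 130, 163 and 179.7 CPM at 24 h (log2 fold change 1.34, SE 0.08), and Hlf 25.1, 41.7 and 111 and 93.9, 116 and 133 CPM (1.15, SE 0.21, adjusted p = 9.5e-05). Tef did not overlap between the times and Hlf did. Nfil3, which encodes a repressor that binds the same D-boxes, was lower (-0.98, SE 0.13), from 20.4 to 46.5 CPM at 6 h to 12.2 to 24.7 CPM at 24 h.

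Rora and Rorb encode ROR receptors, which activate Bmal1. Rorb was lower at 24 h (-0.80, SE 0.27, adjusted p = 0.0141, and -0.57 without the 3 libraries, adjusted p = 0.119) and Rora was not called (0.16, SE 0.17, adjusted p = 0.424). Fbxl21 and Btrc, which encode parts of ubiquitin ligases that act on CRY and PER proteins, were higher by 1.12 (SE 0.18) and 0.55 (SE 0.05) on the log2 scale. Fbxl21 was at a low level, 0.794 to 2.70 CPM at 6 h. Npas2, a paralogue of Clock, was lower (-0.55, SE 0.16, adjusted p = 0.0054), as were Ciart, which encodes a repressor of the BMAL1 and CLOCK pair (-0.55, SE 0.13), and Fbxw11, which encodes a paralogue of the Btrc product (-0.23, SE 0.05). The casein kinase genes Csnk1d and Csnk1e were not called (0.06, SE 0.08, and 0.15, SE 0.09).

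Per1 and Per2 are also direct targets of glucocorticoid and immediate early signals, so lists of genes that answer these signals are set beside them. Of 8 immediate early genes, 6 were lower at 24 h, among them Fosb (-2.02, SE 0.25) and Arc (-2.02, SE 0.23), and 0 were called higher, where 30.7% of all genes tested were called lower and 31.9% higher. Of 6 glucocorticoid targets, 4 were lower, led by Fkbp5 (-1.01, SE 0.10), and Zbtb16 was higher (0.67, SE 0.11). The summed level of the immediate early genes was 84.3 to 360 CPM at 6 h and 96.3 to 190 CPM at 24 h, and that of the glucocorticoid targets 236 to 481 and 215 to 299 CPM. Per1 and Per2 thus differed in direction from the called genes of these lists other than Zbtb16, and the part of either signal in their values was not tested.

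The genes most like Dbp over the 24 libraries, by Pearson's r of log2 CPM, were Pik3ip1 (0.97), Daam2, Aldoc, Nr3c2 and Cryl1 (0.95 to 0.96), and the most opposite were Simc1 and Erlin1 (each -0.97) and Thada (-0.96). Those most like Bmal1 were Cd44 and Odc1 (each 0.97), Nab1, Ppl and Max (0.95 to 0.96), and the most opposite were Poglut3, Sesn3 and Tafa1 (each -0.96). These values describe the 24 libraries, which share the split by time: the genes like Dbp were higher at 24 h by 1.26 to 2.00 on the log2 scale, and those like Bmal1 had log2 fold changes of -1.71 (Ppl) to -0.47 (Max).

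The second question was whether the drugs changed the clock genes. With gentamicin, averaged over pioglitazone, 0 of 10 clock genes were called at 6 h (0.0123% of all genes tested) and 0 at 24 h (0.313%). The count at an unadjusted p under 0.05 was also 0 at both times (2.12% and 2.83% of all genes tested), and so was the count by DESeq2 and by edgeR's likelihood ratio test. The log2 fold changes ranged from -0.13 to 0.14 at 6 h and from -0.04 to 0.14 at 24 h, and the 95% intervals of single genes reached from -0.56 to 0.52.

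GM compared with CTRL called 0 of 10 at 6 h (0% of all genes tested) and 0 at 24 h (0.0123%), by edgeR and by DESeq2. At an unadjusted p under 0.05 it also had 0 (1.49% and 1.67% of all genes tested). Cry1 measured 60.6, 68.5 and 59.8 CPM in CTRL and 50.7, 51.9 and 50.5 CPM in GM at 6 h. The groups did not overlap, but the difference did not pass the test (-0.30, SE 0.16, unadjusted p = 0.0805). Cry1 and Cry2 were the 2 of 10 clock genes without overlap in that comparison, where 5.23% of all genes tested had none. At 24 h Cry1 overlapped between GM and CTRL, with a log2 fold change of -0.08.

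With pioglitazone, averaged over gentamicin, Dbp was the single clock gene called at 6 h, 1 of 10 where 16.1% of all genes tested were called. It measured 8.91, 11.3 and 14.3 CPM (lowest, median and highest of 6 libraries) without and 6.95, 7.41 and 11.2 CPM with pioglitazone, ranges that overlapped. The log2 fold change was -0.45 (SE 0.15, adjusted p = 0.0426). At 24 h, 0 of 10 were called (2.79% of all genes tested), with 2 at an unadjusted p under 0.05 (16.9% of all genes tested). DESeq2 and edgeR's likelihood ratio test each called 1, Dbp. Dbp at 24 h measured 22.4, 33.6 and 37.1 CPM without and 19.1, 21.8 and 27.6 CPM with pioglitazone, a log2 fold change of -0.47 (SE 0.14, adjusted p = 0.0704). With a replicate block over both times or within each time point Dbp was called at 24 h (adjusted p = 0.0263 and 0.019). The difference between the effects at 24 and 6 h was -0.02 (SE 0.20, adjusted p = 0.968).

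The call of Dbp at 6 h rested on the processing. With the GC trend of each library removed the log2 fold change was -0.09 (adjusted p = 0.808), and without the 3 libraries that stood apart, all of them with pioglitazone, it was -0.41 (adjusted p = 0.348). Leaving out 1 library ended the call for 10 of the 24, with adjusted p from 0.0509 to 0.118. At 6 h these were CTRL replicate 1, GM replicates 1 and 3, PIO replicates 1 and 2 and PIO+GM replicates 2 and 3, and at 24 h, libraries outside the comparison that enter the fit, the filter and the scaling, PIO replicates 1 and 3 and PIO+GM replicate 1. At 24 h, where no library followed GC content to that degree, removal of the GC trend left -0.52 (adjusted p = 0.0755).

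In the separate comparisons, PIO against CTRL called 0 of 10 at 6 h (0.337% of all genes tested) and 0 at 24 h (0.153%), and PIO+GM against GM called 0 at 6 h (1.32%) and 0 at 24 h (0.110%). At an unadjusted p under 0.05 these comparisons had 2, 1, 3 and 1 of 10, beside 15.2%, 9.93%, 25.0% and 7.47% of all genes tested. DESeq2 called 0, 0, 1 and 0. Dbp at 6 h measured 14.3, 10.4 and 12.2 CPM in GM and 6.95, 7.38 and 7.43 CPM in PIO+GM. These groups did not overlap (-0.76, SE 0.21, adjusted p = 0.0632), as was true of 4 of 10 clock genes and 23.0% of all genes tested. With a replicate block over both times or within each time point Dbp was called here (adjusted p = 0.0306 and 0.0162). Dbp at 24 h measured 33.9, 22.4 and 34.6 CPM in CTRL and 20.0, 21.5 and 22.1 CPM in PIO. Here too the groups did not overlap (-0.51, SE 0.19, adjusted p = 0.357), which held for 1 of 10 clock genes and 22.3% of all genes tested.

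Per2 was not called with pioglitazone at either time. At 24 h it measured 18.8, 22.8 and 32.2 CPM without and 13.2, 16.5 and 20.8 CPM with pioglitazone, with overlap, and the log2 fold change was -0.51 (SE 0.20, adjusted p = 0.19). At 6 h it was -0.43 (SE 0.21, adjusted p = 0.146). Per1 and Nr1d1 were as low with pioglitazone at 6 h, each with a log2 fold change of -0.45 and no call (adjusted p = 0.133 for Per1). Per3, Nr1d2 and Clock had log2 fold changes of 0.33, 0.42 and 0.33 with pioglitazone at 6 h, short of the threshold (adjusted p = 0.0635, 0.0546 and 0.0661), and with the GC trend removed these values were 0.38 (adjusted p = 0.0281), 0.11 and -0.01. DESeq2 called these 3 genes (adjusted p = 0.0361, 0.0342 and 0.0461), as did a replicate block within each time point (adjusted p = 0.0204, 0.00277 and 0.0148). For Bmal1 the log2 fold changes were -0.13 at 6 h and -0.07 at 24 h, and for Cry1 they were -0.05 and 0.03.

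The difference of the pioglitazone effect between the times called 0 of 10 clock genes by edgeR (0.00613% of all genes tested) and by DESeq2. At an unadjusted p under 0.05 it had 1, Nr1d2 (10.1% of all genes tested). The difference of the gentamicin effect also called 0 by both (0% of all genes tested), with 0 at an unadjusted p under 0.05 (1.63% of all genes tested). Of the 23 other pathway genes, 4 were called with pioglitazone at 6 h, all lower (6.83% of all genes tested were called lower), among them Usp2 (-0.62, SE 0.13), Csnk1e (-0.37, SE 0.12) and Cipc (-0.33, SE 0.07). Without the 3 libraries 0 of the 23 were called, with Usp2 at -0.49, Csnk1e at -0.09 and Cipc at -0.28 (adjusted p = 0.1, 0.741 and 0.157). At 24 h 1 of the 23 was called, and it was lower (2.79% of all genes tested were called). Known targets of PPAR-γ (Angptl4, Pdk4, Plin2 and Cpt1a) summed to 207 to 256 CPM with and 112 to 197 CPM without pioglitazone at 6 h, and to 296 to 371 and 134 to 162 CPM at 24 h. Of the hair cell markers, Myo7a, Pou4f3 and Gfi1, 3 of 8, were called lower with pioglitazone at 6 h (-0.68, -1.02 and -0.78), 3 others had log2 fold changes above 0, up to 0.49, with no call, and without the 3 libraries the called genes were at -0.53, -1.01 and -0.82 with no call (adjusted p = 0.268, 0.231 and 0.242). Of the markers of Schwann cells, Sox10, 1 of 4, was lower (-0.54, adjusted p = 0.0134), and without the 3 libraries it was at -0.27 (adjusted p = 0.387). Their part in the values of Dbp and Per2 was not tested.

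**Figure D5:**
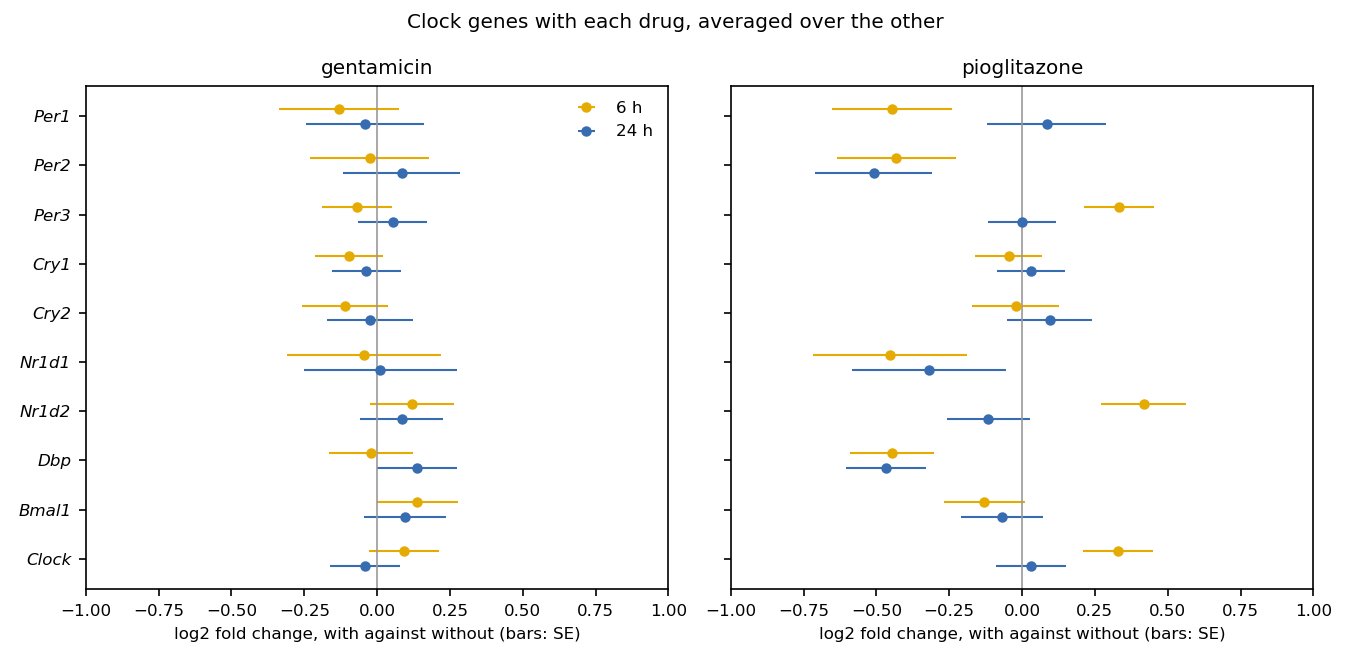
Log2 fold change of each clock gene with against without gentamicin (left) and pioglitazone (right), each averaged over the other drug, at 6 and 24 h (6 against 6 libraries), with standard errors from edgeR's fit. Gentamicin values lie between -0.13 and 0.14. With pioglitazone Dbp, Per2, Nr1d1 and Bmal1 lie below 0 at both times.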

How the data were processed

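RNA from 24 explant libraries was sequenced by the authors from stranded libraries, mapped with STAR (build mm10 in the submitters' processing notes) and counted per RefSeq gene. The deposited values are raw counts, neither normalized nor filtered, with the gene length, and the use of the strand in counting is not given in the sources used here. Counts were tested with edgeR 4.0.16 in R 4.3.3 (TMM, filterByExpr, quasi-likelihood F-test, a mean for each of 8 groups, Benjamini-Hochberg over the 16317 genes kept, threshold 0.05). The filter and TMM factors used all libraries. log2 CPM had a prior count of 2. The members, the lists and the tests were chosen with earlier results of these data known. Named genes were the 10 clock genes, the 5 other pathway genes with the largest change in each direction among those called, and the 5 most like and 3 most opposite to Dbp and to Bmal1, predicted genes passed over. Rora, Csnk1d, Csnk1e, Usp2, Timeless, Cipc and the markers named were chosen after their values were seen. One gene of the pathway list and 1 of a marker list enter the counts but are not reported here. Alternatives were DESeq2 1.42.0, the likelihood ratio test, other scalings and filters, a replicate block, removal of a GC trend and leaving out each library. On simulated data for the time comparison (16036 genes, 200 of them changed), 92% of 100 genes with a log2 change of 1 and 56% of 100 with 0.5 were recovered. Of 158 calls there, 10 were of genes not changed. In the data 62.6% of genes were called, a far larger share than was changed, so that the shares recovered need not hold for them. Locations come from NCBI and GENCODE annotation of GRCm38.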

Additional observations from a re-analysis of the deposited data

How the results depend on the processing

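Under the 34 alternatives the 10 log2 fold changes between the times over all treatments kept their direction, and 333 of 340 such values kept their side of the threshold. The other 7 were Per1 and Per2: with the GC trend removed they were at 0.22 (adjusted p = 0.0637) and 0.26 (adjusted p = 0.0971), with the block added to it they were at 0.22 (adjusted p = 0.0761) and 0.25 (adjusted p = 0.106), and the rest are in the report. The count of 9 clock genes became 7 with the GC trend removed or without the 3 libraries that stood apart, a setting chosen after seeing the data, and 8 to 9 when 1 library was left out. The main fit called 62.6% of all genes tested, and the shares under these settings are not given here. With 1 library left out, the counts within treatments were 5 in CTRL, 5 to 6 in GM, 4 to 6 in PIO and 5 to 7 in PIO+GM, and 11 to 13 other pathway genes were called.

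The counts with pioglitazone moved most. In the main fit 16.1% of all genes tested were called at 6 h. The share under most other settings is not given here, so that these counts are not a result about clock genes in particular. At 6 h, in place of 1 clock gene, 4 were called with at least 10 counts in every library, by DESeq2 and with a block within each time point, 2 with library size in place of TMM, by the likelihood ratio test and with the replicate block over both times, and 0 with no filter, with the libraries of the groups compared only and without the 3 libraries, with a range of 0 to 4 when 1 library was left out. For PIO+GM against GM at 6 h, in place of 0, DESeq2, the likelihood ratio test and the replicate block each called 1, the block within each time point called 2, and leaving out 1 library gave 0 to 1. At 24 h, in place of 0, DESeq2, the likelihood ratio test and both blocks each called 1 (Dbp), and leaving out 1 library gave 0 to 1. Averaged over the times, in place of 2, 4 were called with the block within each time point and 1 with the GC trend removed, with or without the block, and without the 3 libraries, and leaving out 1 library gave 1 to 3. Among all genes, 2625 were called with pioglitazone at 6 h, 1672 with the GC trend removed and 123 without the 3 libraries. The cause of these shifts was not tested.

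Libraries with the same replicate number tended to deviate together at 24 h, where 15 of 18 pairs of treatments had a correlation over 0.1, against 10 of 36 pairs with different numbers. The mean correlation there was 0.38 against -0.18. At 6 h the counts were 9 of 18 against 13 of 36 (means 0.11 and -0.05), and across times 17 of 48 against 39 of 96. The main tests did not use the replicate number. At each time 8 of 12 libraries correlated best with their own number. The samples share only a number, and the replicate block changed no other count by over 1.5 times. Another scaling moved the median of all genes by at most 0.04 on the log2 scale. Leaving out a library from a group of 3 assumes that the others vary like the rest. The lowest count of a clock gene in a library was 50, and the effect of depth was not tested. No group had 4 or more libraries, so that single libraries were not tested as outliers.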

Other observations

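Averaged over both times as well as over gentamicin, a comparison added after the data were seen, pioglitazone gave 2 clock genes called by edgeR's quasi-likelihood test, both lower, where 10.2% of all genes tested were called lower. Dbp, which encodes the D-box activator, had a log2 fold change of -0.46 (SE 0.10, adjusted p = 0.0041), and Per2, a repressor gene, one of -0.47 (SE 0.14, adjusted p = 0.0271). With the GC trend removed Dbp was at -0.30 (adjusted p = 0.0895) and Per2 at -0.44 (adjusted p = 0.0267), and without the 3 libraries that stood apart Dbp was at -0.44 (adjusted p = 0.0231) and Per2 at -0.33 (adjusted p = 0.108). Each of the 2 calls thus held under 1 of these settings and was lost under the other. The call of Per2 was also lost without GM 6 h replicate 3, CTRL 24 h replicate 1, PIO 24 h replicate 1 or PIO+GM 24 h replicate 3 (adjusted p from 0.0509 to 0.0569). The block within each time point also called Clock (0.18, adjusted p = 0.0372) and Nr1d2 (0.16, adjusted p = 0.0478), both higher. Per3 was called higher without PIO 6 h replicate 2 (0.22, adjusted p = 0.0342), and Nr1d1 lower without CTRL 6 h replicate 3 (-0.48, adjusted p = 0.0451). Of the 23 other pathway genes 5 were called, all lower, among them Usp2 (-0.48), Timeless (-0.47), Cipc (-0.30) and Csnk1e (-0.25). Without the 3 libraries 3 of the 23 were called, with Timeless at -0.39 (adjusted p = 0.11) and Csnk1e at -0.11 (adjusted p = 0.223). Of the marker lists, 3 of 8 hair cell genes were called lower (Myo7a -0.51, Pou4f3 -0.78 and Gfi1 -0.56), and Myo7a and Pou4f3 were also called without the 3 libraries (adjusted p = 0.0422 and 0.0408). Of the mesenchymal markers 1 of 5, Col1a2 (-0.55), and of the glucocorticoid targets 1 of 6, Sgk1 (-0.36), were called lower, each lost without the 3 libraries. Their part in the values of Dbp and Per2 was not tested.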
